A study of Mus musculus with 6 samples.

Results

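The enzymes that make, modify and break down ceramide were measured in mouse hearts through 14 probes of 10 genes, out of 55681 probes other than controls on an Agilent mouse expression array. The genes were *Sptlc1*, *Sptlc2*, *Degs1*, *Degs2*, *Smpd1*, *Sgms1*, *Asah1*, *Cerk*, *Sphk1* and *Ugcg*, and a probe was taken where its gene name on the array was exactly one of these. Each array carried the RNA of 1 heart from a male C57BL/6 mouse, in 3 mice fed a normal diet (ND, a standard chow) and 3 mice fed a high fat diet (HFD, 60% of kcal from fat). Feeding began at 4 weeks of age and lasted 4 months in both groups. The labels give no transgene for any of these mice, and the comparison asks how the heart's transcripts differ between the diets. The labels number the hearts without naming litters or cages, so that a p-value measures the spread between these samples.

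Ceramide is the hub of sphingolipid metabolism. It is built de novo from serine and palmitoyl-CoA, released from sphingomyelin by sphingomyelinases, and consumed by conversion to sphingomyelin, glucosylceramide, ceramide 1-phosphate or, through ceramidases, to sphingosine and sphingosine 1-phosphate. Because palmitate feeds the first step, ceramide is one of the lipids studied when the heart takes up more fatty acid than it oxidizes.

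Levels are the log2 intensity of a probe relative to the 75th percentile of its array, so that 0 is the brightness of the 75th percentile, and a level belongs to its own probe and cannot be set against that of another. All arrays shared 1 slide. Row 1 held HFD 1 and HFD 2, and row 2 held HFD 3 and the ND hearts. The share of probes well above background was 49.2% to 52.9% on the 6 arrays, 0 spots were saturated, and arrays of one diet correlated at 0.990 to 0.995 across probes. The heart label was borne out by cardiomyocyte markers (*Myh6*, *Tnnt2*, *Actc1*, *Myl2*, *Tnni3*, *Ryr2* and *Pln*), whose mean level lay between 8.07 and 8.32 in every heart. In pieces of tissue, fewer cells of a type and less RNA per cell cannot be told apart.

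The sequences below are the first 30 of the 60 bases of 7 probes, 5′ to 3′ as the files give them. They are shown because the results turn on them. *Smpd1* had the clearest difference between the diets, *Sptlc2* and *Sphk1* were each read at 2 places of the gene, and *Degs1* and *Degs2* are related genes whose spread between hearts was far apart. The positions are those of the files on mm9.
Smpd1 A_51_P429209, plus strand of chr7:112706752-112706811: ctgatgtctgacctgggctttgtcgagggc
Sptlc2 A_51_P321331, minus strand of chr12:88683609-88683668: tgccattgtttatggtcagcctcggacaag
Sptlc2 A_52_P59916, minus strand of chr12:88649448-88649507: caagaagagaggcagtgtcatttgtgaagc
Sphk1 A_51_P501248, plus strand of chr11:116397908-116397967: ttgcatatagaagacactccccattgctct
Sphk1 A_55_P2186005, plus strand of chr11:116397591-116397650: aagctgtgcagggccaagtgcacccaaact
Degs1 A_51_P498890, minus strand of chr1:184206280-184206339: ttataagtctcgggaaactgatgaaattct
Degs2 A_51_P122649, minus strand of chr12:109928501-109928560: gatacagagtaaccaggcttacctgaactt
Of 574 overlapping 20-base words in the 14 member probes, 0 occurred in a probe of another gene on the array, and the longest run that the *Degs1* and *Degs2* probes shared was 7 bases. The place of the probes within exons was not analysed here.

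All 14 member probes passed the filter on low signal, that of *Degs2* only through its ND hearts. After adjustment over the 27587 probes tested (limma, two-sided, Benjamini-Hochberg adjusted p below 0.05), 0 of 14 passed, where 4 probes in all (0.0145%) did. Before adjustment 1 of 14 member probes (7.14%), that of *Smpd1*, had a p below 0.05, against 11.9% of all probes tested (6.64% lower and 5.23% higher in HFD). The ND and HFD hearts did not overlap for that same probe alone, against 19.0% of all probes (11.1% lower and 7.92% higher in HFD). A single probe of 14 sets these shares, and without HFD 3 there were 3 of 14 at an unadjusted p below 0.05, against 10.4% of all probes, so that nothing about the members as a group is read from them. The median log2 fold change (HFD against ND) of the 14 probes was 0.05, with 10 higher and 4 lower, and the median of all probes tested was −0.0081.

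**Figure D1:**
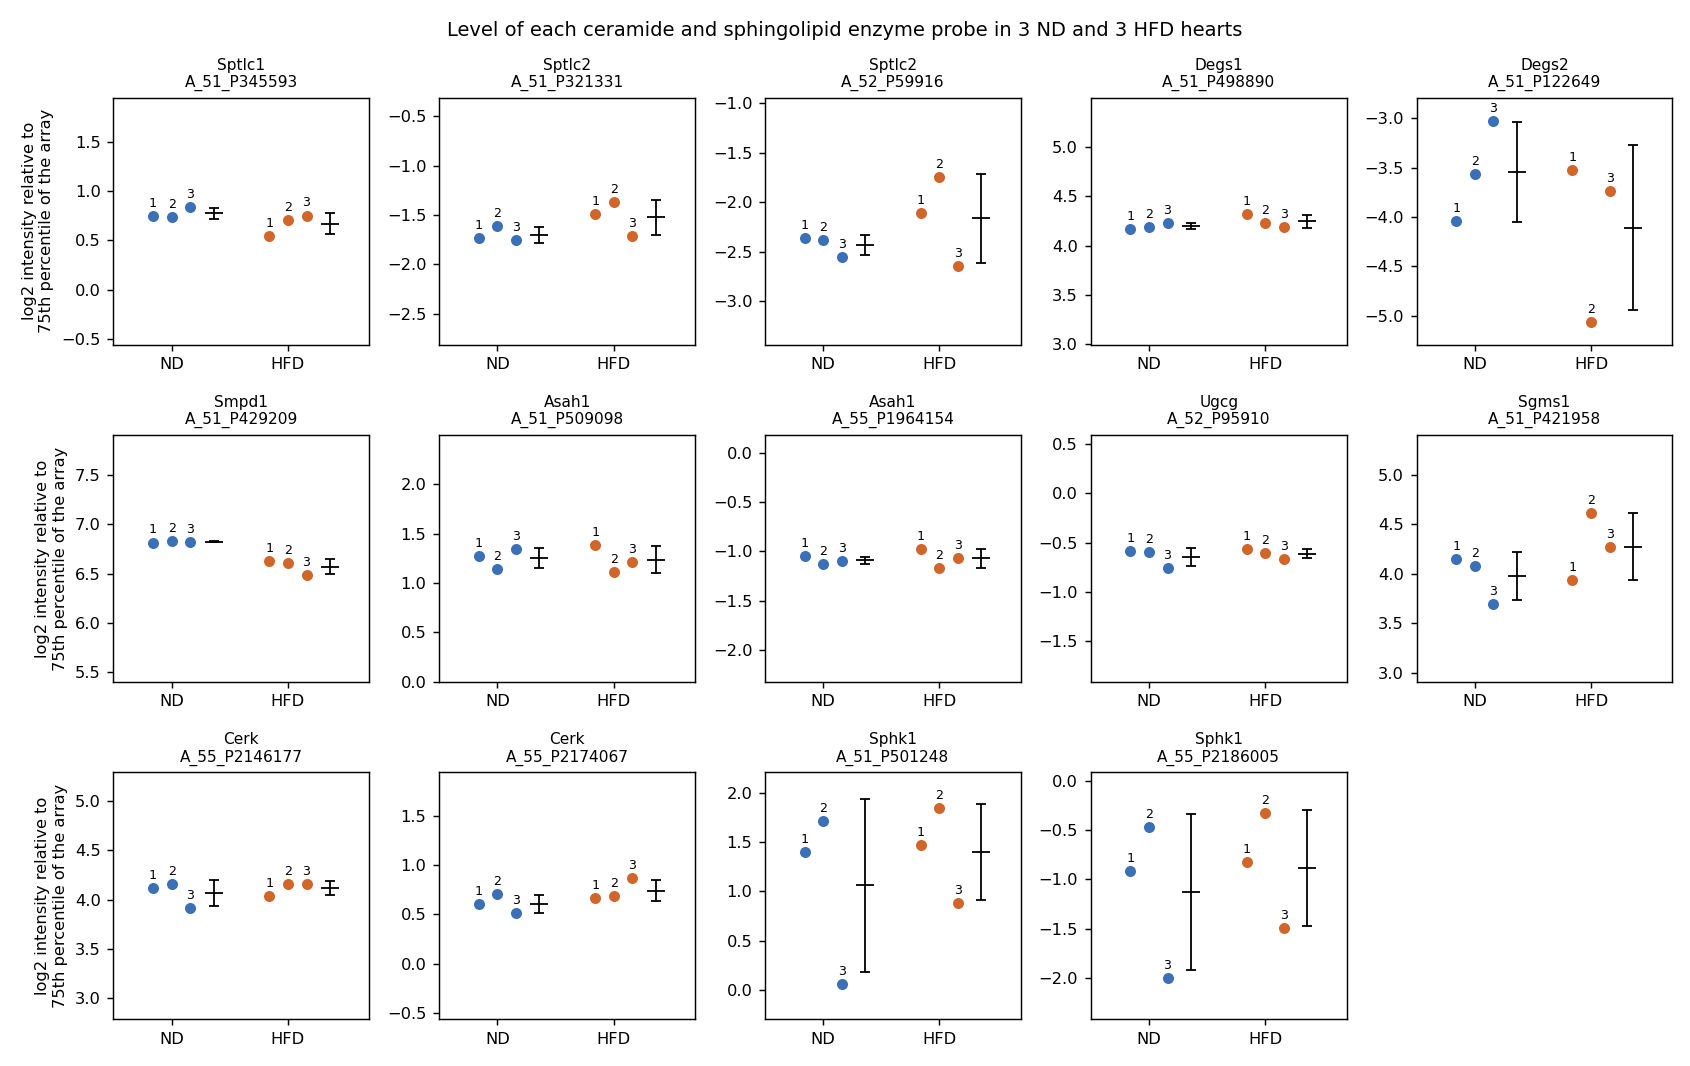
Level of each of the 14 member probes (y axis, log2 intensity relative to the 75th percentile of the array; every panel spans the same number of log2 units) in 3 ND and 3 HFD hearts, with the heart number at each point and the mean ± SD at the side. The *Smpd1* hearts separate by diet, while heart 3 of each diet is the lowest for both *Sphk1* probes and HFD 2 is the lowest for *Degs2*.

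De novo synthesis begins with serine palmitoyltransferase, whose core subunits are encoded by *Sptlc1* and *Sptlc2*. *Sptlc1* lay at 0.75, 0.74 and 0.84 in the ND hearts and at 0.55, 0.71 and 0.75 in the HFD hearts. HFD 1 was the lowest, HFD 2 lay just under the ND range and HFD 3 within it. Its log2 fold change was −0.10 (SE 0.08, adjusted p = 0.674 in limma), with a 95% interval of the HFD level from 81.0% to 106.9% of the ND level. It was −0.043 without HFD 1 and −0.022 with the slide row as a term.

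*Sptlc2*, the subunit that carries the cofactor of the reaction, had levels of −1.74, −1.61 and −1.75 in ND and −1.49, −1.37 and −1.71 in HFD by probe A_51_P321331. By probe A_52_P59916 the ND hearts stood at −2.37, −2.38 and −2.56 and the HFD hearts at −2.11, −1.74 and −2.64. Both probes put HFD 2 first and HFD 1 next, above every ND heart, and both put HFD 3 among or below the ND hearts. Their log2 fold changes were 0.18 (SE 0.11, adjusted p = 0.585 in limma) and 0.27 (SE 0.23, adjusted p = 0.696).

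The direction of *Sptlc2* differed between fits. HFD 1 and HFD 2, the high hearts, were the arrays on row 1. With the slide row as a term, or on row 2 alone, where HFD 3 is the only HFD heart, the log2 fold changes were −0.01 and −0.21. Without HFD 3 they were 0.27 (adjusted p = 0.427 in limma) and 0.51 (adjusted p = 0.369), both at an unadjusted p below 0.05, and without HFD 2 they were 0.10 and 0.06. Since the fits with the slide row set HFD 3 alone against the ND hearts, the slide row and a low HFD 3 heart cannot be told apart.

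The last step of de novo synthesis, the desaturation of dihydroceramide, is carried out by the product of *Degs1*. Its ND levels were 4.17, 4.19 and 4.23 and its HFD levels 4.32, 4.23 and 4.19, so that the diets overlapped within a narrow band. The log2 fold change was 0.05 (SE 0.07, adjusted p = 0.824 in limma), and the interval of the HFD level ran from 92.2% to 116% of the ND level. The within-diet SD of *Degs1*, 0.05 on the log2 scale, was larger than that of only 7.03% of all probes tested.

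*Degs2*, whose product also hydroxylates dihydroceramide to make phytoceramide, was read by 10 spots on each array and was dim. Its levels in the ND hearts were −4.04, −3.57 and −3.03, and in the HFD hearts −3.52, −5.06 and −3.74. The HFD 2 heart stood lowest by far, and there 1 of 10 spots was well above background, whereas in each of the other hearts all 9 or 10 spots in use were. The probe was therefore well above background in 3 of 3 ND and 2 of 3 HFD hearts, and so was tested only through its ND hearts. Its intensities ran from 13.6 in HFD 2 to 58.5 in ND 3.

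The log2 fold change of *Degs2* was −0.56 (SE 0.46, adjusted p = 0.688 in limma), and without HFD 2 it was −0.09 (limma adjusted p = 0.924). HFD 2 was also the lowest heart for the 4 tested genes of an atrial muscle list (*Myl7*, *Myl4*, *Sln*, *Nppa*), with a mean level of 1.22 against 4.71 to 7.54 in ND and 6.88 and 7.88 in the other HFD hearts. The 4 tested white adipocyte markers had a mean of −4.05 in HFD 2, against −1.82 to −0.83 in ND and −1.46 and −0.21 in the other HFD hearts. Their part in the *Degs2* values was not tested.

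*Smpd1* encodes acid sphingomyelinase, the lysosomal enzyme that splits sphingomyelin into ceramide and phosphocholine. Its level was 6.82, 6.83 and 6.82 in ND hearts and 6.62, 6.61 and 6.48 in HFD hearts. Each HFD heart lay below each ND heart, the ND hearts were almost the same, and HFD 3 was the lowest. Before scaling, the spot brightness was 55039, 54808 and 53957 intensity units in the ND hearts, and 50830, 44313 and 48598 in the HFD hearts. Each HFD heart lay below each ND heart there as well, but HFD 2 and not HFD 3 was the lowest. The 75th percentile used to scale was 489, 483 and 477 in the ND hearts and 516, 453 and 544 in the HFD hearts. The place of HFD 3 as the lowest thus depends on the scaling.

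The means were 6.82 ± 0.0055 (SD, n = 3) in ND and 6.57 ± 0.08 in HFD. This is a log2 fold change of −0.25 (SE 0.07), or an HFD level of 84.1% of the ND level with a 95% interval from 74.8% to 94.7%. The limma p was 0.0116 before and 0.286 after adjustment, so *Smpd1* did not pass the adjustment and stood at rank 1114 by p among all probes tested. A two-sided exact permutation test of the 6 hearts gave p = 0.1, and no smaller p can be had from groups of this size.

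The *Smpd1* difference kept its sign in all 19 alternative settings, with a log2 fold change from −0.34 to −0.20. Its p lay between 0.00272 and 0.0417 before adjustment and between 0.146 and 0.642 after it, the methods' t-test being one of the settings. Within row 2 of the slide, where HFD 3 is compared with the 3 ND hearts, the log2 fold change was −0.34. That HFD arm is 1 heart, after scaling the lowest of the 3 for *Smpd1*, and its spread is assumed to be that of the ND hearts. The value therefore adds no replicate check. The red cell markers (*Hba-a1*, *Hbb-b1*, *Alas2*, *Slc4a1*, *Ahsp*) moved alongside, with 5 of 5 tested genes lower in HFD. Their mean level was 3.20 to 3.98 in ND and 2.41 to 2.82 in HFD. Other lists also held lower genes. Of the atrial muscle markers 4 of 4 tested were lower (median log2 fold change −0.69). Of the white adipocyte markers 3 were lower and 1 higher (−0.58), and of the neutrophil markers 2 were lower and 1 higher (−0.85). Of the macrophage markers 4 were lower and 2 higher (median log2 fold change −0.17), and of the fibroblast markers 4 were lower and 1 higher (−0.06). Of the skeletal muscle markers 2 of 2 tested were lower (−0.43), and of the endothelial markers 2 were lower and 3 higher. The part of these cell types in the *Smpd1* values was not tested. The cardiomyocyte markers had a median log2 fold change of −0.03.

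The opposite reaction, the transfer of phosphocholine to ceramide in the Golgi, is the work of sphingomyelin synthase, encoded by *Sgms1*. The ND hearts lay at 4.15, 4.08 and 3.70, and the HFD hearts at 3.94, 4.62 and 4.27. HFD 2 and HFD 3 stood above the ND hearts and HFD 1 among them. HFD against ND, the log2 fold change was 0.30 (SE 0.21, adjusted p = 0.631 in limma), and the interval of the HFD level, from 86.7% to 174% of the ND level, leaves room for a difference of either sign. The value depended on single hearts, at 0.13 without HFD 2, 0.16 without ND 3 and 0.47 without HFD 1.

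**Figure D2:**
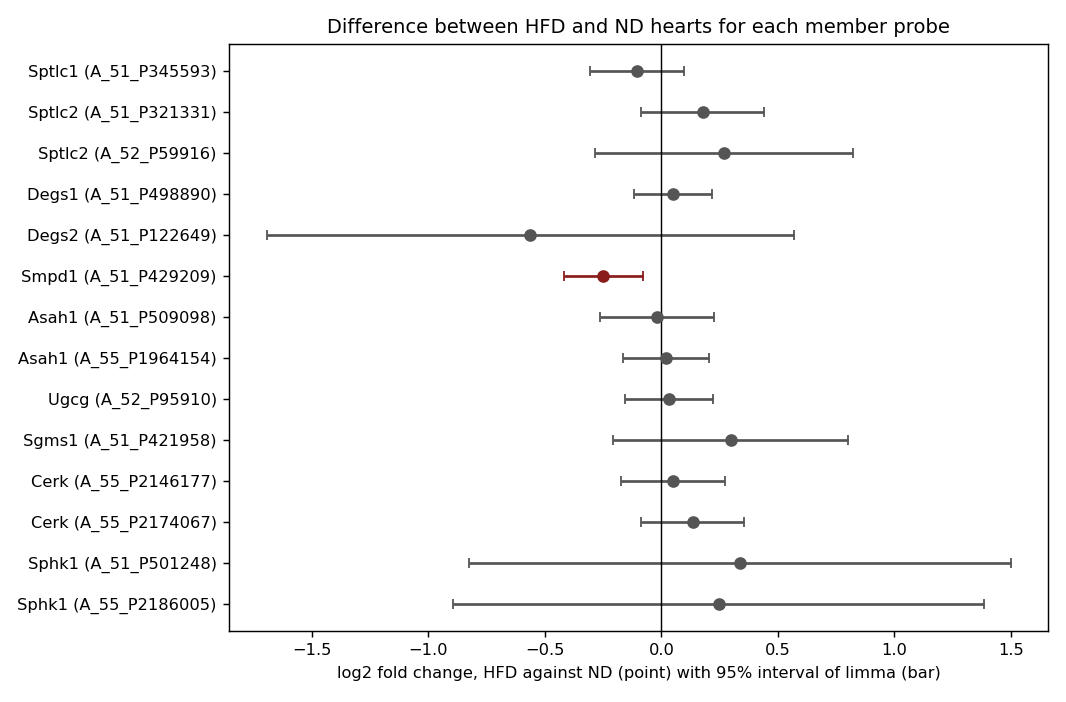
Log2 fold change (x axis, HFD against ND) of each member probe (y axis) as a point with its 95% interval from limma as a bar, and the probe with an unadjusted p below 0.05 in red. The interval of *Smpd1*, from −0.42 to −0.08, is the only one of the 14 that does not reach 0, and those of *Degs2* and *Sphk1* are the widest.

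Ceramide is cleaved in lysosomes by acid ceramidase, encoded by *Asah1*. Probe A_51_P509098 had levels of 1.28, 1.15 and 1.34 in ND and of 1.39, 1.11 and 1.21 in HFD. Probe A_55_P1964154 had levels of −1.05, −1.13 and −1.10 in ND and −0.98, −1.17 and −1.07 in HFD. By both probes the highest and the lowest of the 6 hearts were HFD hearts (HFD 1 and HFD 2), with the ND hearts between them. The log2 fold changes were −0.02 (SE 0.10, adjusted p = 0.962 in limma) and 0.02 (SE 0.08, adjusted p = 0.945). The intervals of the HFD level were 83.3% to 117% and 89.1% to 115% of the ND level.

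Ceramide kinase, encoded by *Cerk*, phosphorylates ceramide to ceramide 1-phosphate. Its probe A_55_P2146177 had levels of 4.12, 4.16 and 3.92 in ND and 4.04, 4.16 and 4.16 in HFD. Its probe A_55_P2174067 had levels of 0.60, 0.70 and 0.51 in ND and 0.67, 0.68 and 0.87 in HFD. ND 3 was the lowest heart by both probes, and HFD 3 was the highest, by the first probe only at the level of ND 2 and HFD 2. The log2 fold changes were 0.05 (SE 0.09, adjusted p = 0.871 in limma) and 0.13 (SE 0.09, adjusted p = 0.620), with the diets overlapping.

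Glucosylceramide synthase, encoded by *Ugcg*, starts the glycosphingolipids. Its probe read −0.59, −0.59 and −0.75 in the ND hearts and −0.57, −0.61 and −0.66 in the HFD hearts. The HFD hearts lay within the range of the ND hearts but for HFD 1, which was above it by less than the within-diet SD of 0.07. For *Ugcg* the log2 fold change was 0.03 (SE 0.08, adjusted p = 0.908 in limma), and the interval of the HFD level was 89.7% to 117% of the ND level.

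Sphingosine kinase 1, encoded by *Sphk1*, makes sphingosine 1-phosphate, a lipid that signals through receptors on the cell surface. Probe A_51_P501248 had levels of 1.40, 1.72 and 0.06 in ND and 1.47, 1.85 and 0.88 in HFD. Probe A_55_P2186005 had levels of −0.91, −0.47 and −2.002 in ND and −0.82, −0.33 and −1.50 in HFD. Both probes ranked the 6 hearts in the same order, HFD 2, ND 2, HFD 1, ND 1, HFD 3 and ND 3, so that the diets alternated and heart 3 of each diet was the lowest. The lowest and the highest heart differed 3.44-fold by the first probe and 3.19-fold by the second.

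The log2 fold changes of *Sphk1* were 0.34 (SE 0.48, adjusted p = 0.826 in limma) and 0.25 (SE 0.47, adjusted p = 0.876), smaller than their standard errors. The 95% interval of the HFD level ran from 56.4% to 283% of the ND level by the first probe, so that these 6 hearts set only a wide bound on the difference. Without ND 3 the log2 fold changes were −0.16 and −0.19. With the replicate number as a block they were again 0.34 and 0.25, with smaller SEs of 0.18 and 0.12 (adjusted p = 0.570 and 0.526 in limma). The labels do not say that equal numbers mark pairs. The within-diet SD of 0.71 and 0.70 was larger than that of 98.1% and 97.9% of all probes tested. The 3 tested neutrophil markers (*S100a8*, *S100a9* and *Camp*) were also lowest in heart 3 of each diet, with mean levels of −0.15, 0.09 and −1.86 in ND and −0.53, −0.63 and −2.25 in HFD, while *Mpo* was above background in 0 of the 6 hearts. Their part in the *Sphk1* values was not tested.

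**Figure D3:**
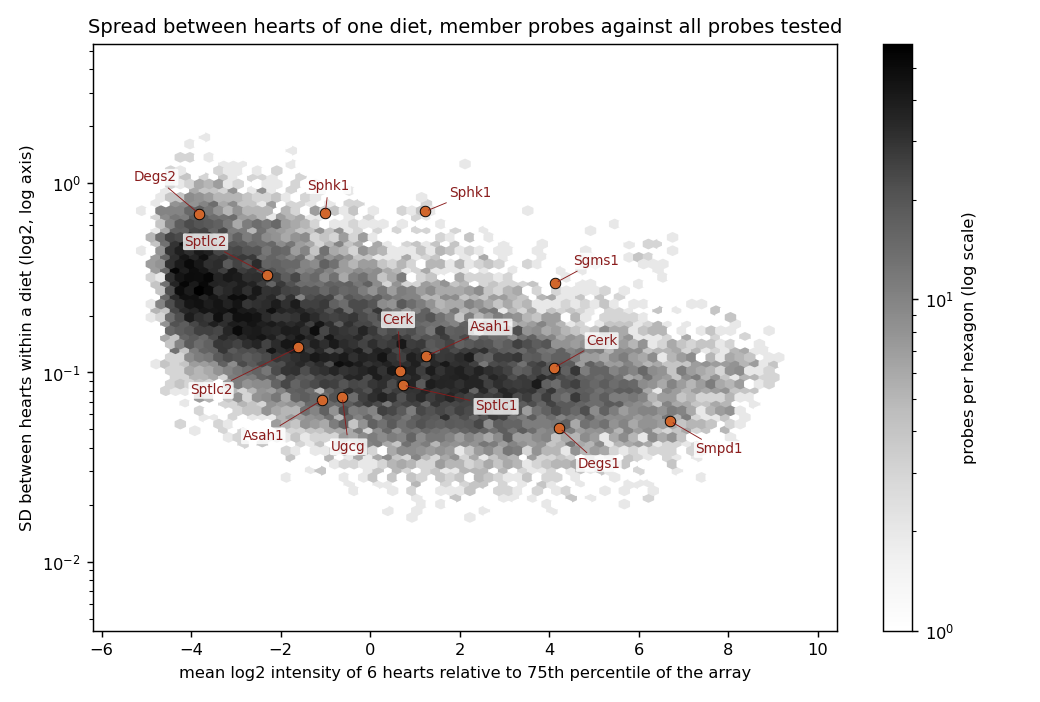
SD between hearts of the same diet (y axis, log2 units on a log axis) against the mean level of the 6 hearts (x axis, log2 intensity relative to the 75th percentile) for the 27587 probes tested, shaded by the number of probes per hexagon, with the 14 member probes as labelled points. Both *Sphk1* probes lie above nearly all probes, at within-diet SDs of 0.71 and 0.70, while *Degs1* and *Smpd1* lie near the lower edge.

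The members differed widely in their spread between hearts of the same diet. *Sphk1*, *Degs2* (within-diet SD 0.69, larger than that of 97.8% of probes), one probe of *Sptlc2* (0.33, larger than 85.02%) and *Sgms1* (0.30, larger than 81.9%) varied more between hearts of the same diet than most probes on the array. The *Degs2* probe was dim, and in its lowest heart, HFD 2, 1 of 10 spots was well above background. The SD between its spots there was 0.43 on the log2 scale. The part of measurement noise in the *Degs2* spread was not tested. *Sptlc1*, *Degs1*, *Smpd1*, *Ugcg* and the *Asah1* probe A_55_P1964154 varied less than most, with within-diet SDs of 0.05 to 0.09 against a median of 0.138 for all probes. The limma intervals are computed from this same spread. They were therefore narrower for the steady genes than for the variable ones.

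The wider sphingolipid pathway was described from a list of 82 genes in 8 groups, the 10 members among them, with 1 probe per gene. Of these, 80 were found by name on the array and 68 were tested, and 0 passed the adjustment in limma, against 0.0146% of all 20569 genes. At an unadjusted p below 0.05 were 9 of the 68 genes (13.2%), 7 lower and 2 higher in HFD, where 12.0% of all genes were at this limit, 7.02% lower and 4.96% higher. The median log2 fold change was −0.0091 for the list and −0.01 for all genes. The hearts of the diets did not overlap for 8 lower and 2 higher genes of the 68, against 19.5% of all genes (11.8% lower and 7.73% higher). Without the members, 8 of 58 genes (13.8%) were at an unadjusted p below 0.05. The groups of the list hold few genes each, so nothing about a group is read from its count.

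The lower genes lay in sphingomyelin turnover, ceramide handling and glycosphingolipid metabolism. *St3gal5*, the synthase of the ganglioside GM3, had the smallest p of the list. Its ND levels were 4.69, 4.76 and 4.72 and its HFD levels 4.31, 4.20 and 4.23, with each HFD heart below each ND heart by more than the spread within a diet. The log2 fold change was −0.47 (SE 0.07, adjusted p = 0.121 in limma), and the HFD level was 72.0% of the ND level with a 95% interval from 64.3% to 80.7%. *St3gal5* passed the adjustment in 1 of 19 alternatives, limma with an intensity trend and robust variances (adjusted p = 0.0290), and its adjusted p was between 0.0290 and 0.519 over all of them. In that 1 setting 81 of the 27587 probes tested passed, against 4 in the reported setting.

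In the group of sphingomyelin turnover, 2 of 8 tested genes were at an unadjusted p below 0.05, where 12.0% of all genes were. Both were sphingomyelinases and both were lower in HFD. Beside *Smpd1* this was *Smpd3*, which encodes a neutral sphingomyelinase, at −1.82, −1.86 and −1.81 in ND and −2.06, −2.20 and −2.35 in HFD. The HFD hearts lay below all ND hearts, and the log2 fold change was −0.37 (SE 0.09, adjusted p = 0.253 in limma). The other sphingomyelinases tested, *Smpd2* and *Smpd4*, had log2 fold changes of 0.10 (SE 0.09) and −0.07 (SE 0.09), and the median of the group was 0.06.

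In glycosphingolipid synthesis 3 of 10 tested genes were at this limit, against 12.0% of all genes. Beside *St3gal5*, *B4galt6*, a lactosylceramide synthase, was lower in each HFD heart, with a difference of −0.18 on the log2 scale (SE 0.07, adjusted p = 0.387 in limma). By its second probe the value was −0.13, with the diets overlapping. *St3gal2*, which adds sialic acid to gangliosides, lay at 2.07, 1.90 and 1.97 in ND and 2.19, 2.21 and 2.23 in HFD. The difference was 0.23 on the log2 scale (SE 0.07, adjusted p = 0.327), and by its second probe 0.49 (SE 0.18, adjusted p = 0.381) with the diets overlapping. The group held differences in both directions, with a median of 0.04.

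In glycosphingolipid breakdown 1 of 13 tested genes was at this limit, against 12.0% of all genes. This was *Gba2*, the glucosylceramidase outside the lysosome, at −0.21 on the log2 scale (SE 0.08, adjusted p = 0.419 in limma). *Gm2a*, the activator protein for ganglioside cleavage, had the highest value of the group, 0.07 (SE 0.19, adjusted p = 0.910), and the median of the group was −0.0078.

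Ceramide breakdown and transfer held 1 gene each at this limit, of 4 and 5 tested, against 12.0% of all genes. *Acer2*, an alkaline ceramidase of the Golgi, differed by −0.32 on the log2 scale (SE 0.13, adjusted p = 0.421 in limma) with an unadjusted p that rounds to 0.05 and with overlapping hearts. Its second probe stood at −0.37 (SE 0.11, adjusted p = 0.289) with no overlap. That probe was well above background in 3 of 3 ND and 2 of 3 HFD hearts. It was thus tested only through its ND hearts, where it was higher, and adds no support. *Plekha8*, whose product transfers glucosylceramide in the Golgi, differed by −0.30 on the log2 scale (SE 0.11, adjusted p = 0.386) by one probe and 0.13 (SE 0.08, adjusted p = 0.607) by another of the same transcript, so that its probes disagreed in sign. *Asah2*, a neutral ceramidase, stood at 0.12 (SE 0.13, adjusted p = 0.785), and its second probe at −0.13.

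Sphingosine 1-phosphate genes were split between metabolism and receptors. In metabolism 0 of 11 tested genes were at an unadjusted p below 0.05, against 12.0% of all genes. The lowest value was that of *Sphk2*, the other sphingosine kinase, at −0.12 (SE 0.08, adjusted p = 0.631 in limma), with the HFD hearts below the ND hearts. Among the receptors 1 of 4 tested genes was at this limit, against the same 12.0% of all genes. *S1pr3* lay at 1.07, 1.30 and 1.30 in ND and 1.60, 1.42 and 1.43 in HFD, which differ by 0.26 on the log2 scale (SE 0.10, adjusted p = 0.402). *S1pr1* had a value of 0.27 (SE 0.16, adjusted p = 0.582) with overlapping hearts, and *S1pr5* one of −0.10 (SE 0.08, adjusted p = 0.667).

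De novo synthesis, the group that starts from palmitoyl-CoA, had 0 of 13 tested genes at an unadjusted p below 0.05, against 12.0% of all genes. In this group 6 genes were higher and 7 lower, with a median log2 fold change of −0.01. The ceramide synthase *Cers6* (named *Lass6* on the array) had the highest value at 0.54 (SE 0.29, adjusted p = 0.536 in limma). Its probe was well above background in 1 of 3 ND and 3 of 3 HFD hearts and so was tested only through its HFD hearts, and the value was 0.30 without ND 1, 0.050 with the slide row as a term and 0.088 after normexp background correction, which leaves its size and rank unsettled. The lowest value of the group was that of *Degs2*, which was tested only through its ND hearts. The remaining tested genes of the group (*Cers2*, *Cers4*, *Cers5*, *Kdsr*, *Sptssa*, *Ormdl1*, *Ormdl2* and *Ormdl3*) lay between −0.07 and 0.07.

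**Figure D4:**
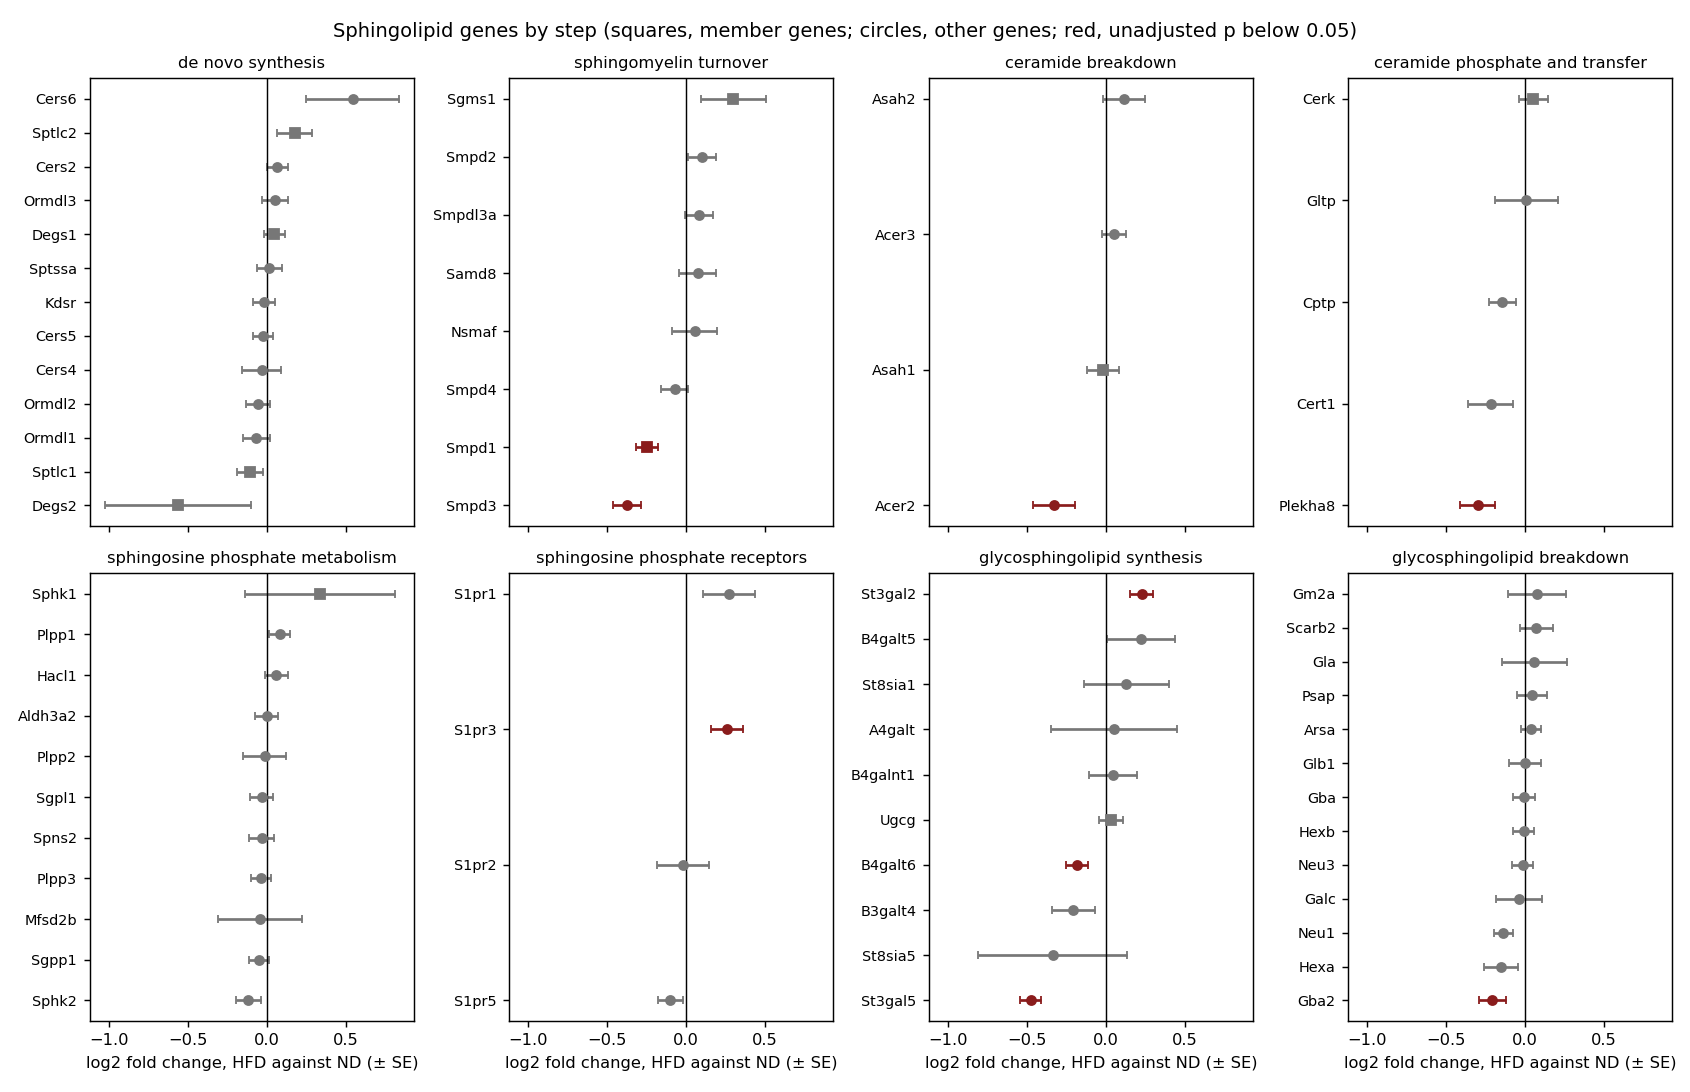
Log2 fold change (x axis, HFD against ND, with the SE of limma as a bar) of the 68 tested sphingolipid genes in 8 panels by step, with member genes as squares, other genes as circles and an unadjusted p below 0.05 in red. Red points are found in 6 of 8 panels, 7 to the left of 0 and 2 to the right, and none in de novo synthesis or sphingosine phosphate metabolism. Of all genes, 12.0% were at this limit.

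**Figure D5:**
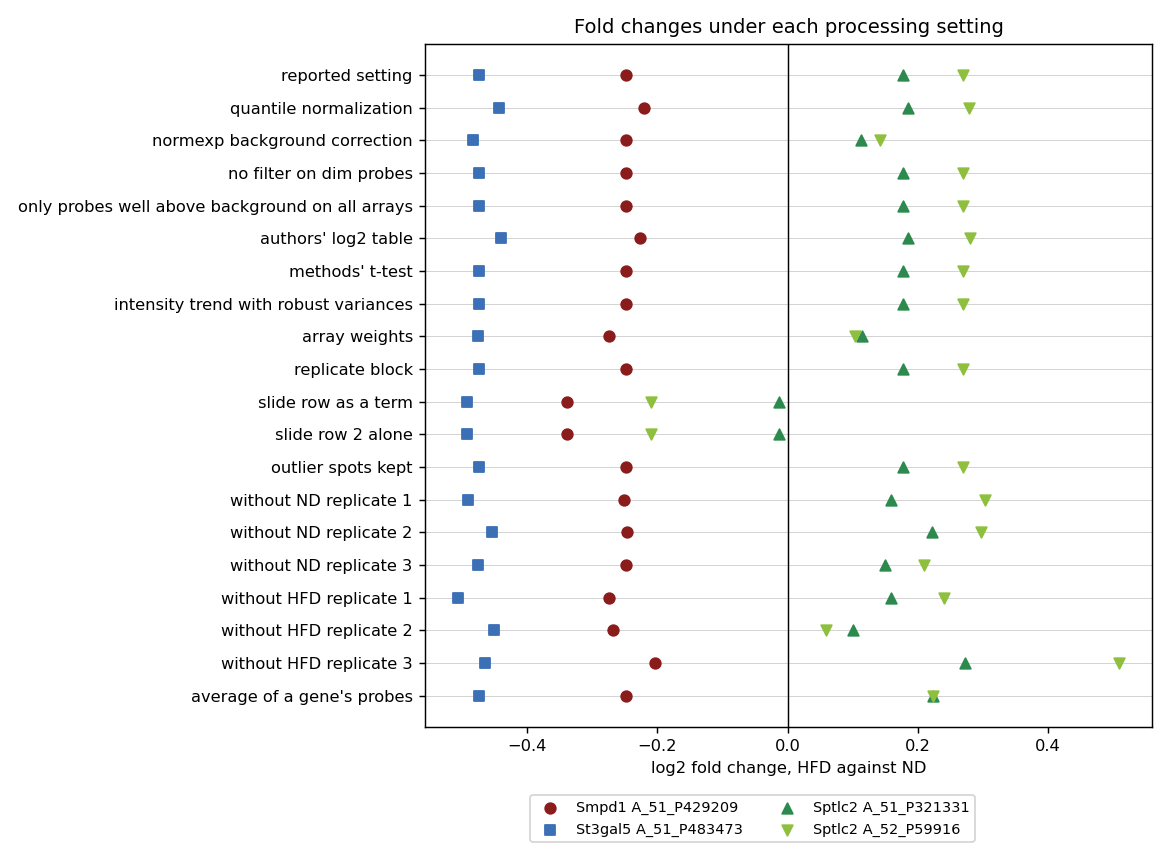
Log2 fold change (x axis, HFD against ND) of *Smpd1*, *St3gal5* and both *Sptlc2* probes under the reported setting and each of 19 alternatives (y axis). *Smpd1* stays between −0.34 and −0.20 and *St3gal5* between −0.51 and −0.44, while the *Sptlc2* probes run from −0.21 to 0.51 and lie below 0 in the fits with the slide row, where HFD 3 alone is set against the ND hearts.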

How the data were processed

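Hearts of 3 ND- and 3 HFD-fed mice were measured on Agilent mouse arrays (design 028005) in 1 colour. The deposited intensities had been extracted by the authors with Agilent Feature Extraction 10.7.1.1, which subtracts background within an array, and were not normalized between arrays. The authors' deposited table of log2 values matched a quantile normalization (largest median difference 0.00431) and was used as an alternative. Genes were named as on the array, and the RefSeq accessions of 14 of 14 member probes carried the member's symbol in the RefSeq genes of GRCm38.p6.

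Control spots and outlier-flagged spots (127 to 190 per array) were left out, spots of a probe were averaged, and log2 intensities were scaled to the 75th percentile of the array. A probe counted as above background where at least a fraction of 0.5 of its spots were, and was tested where this held on every array of 1 group and at least 2 arrays per group were measured. The diets were compared with limma 3.58.1 (R 4.3.3, with data.table (1.17.8), jsonlite (2.0.0) and statmod (1.5.0)) with Benjamini-Hochberg adjustment. Plots were made with matplotlib 3.10.9 (Python 3.11.15). The code was tested on simulated data.

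For the wider list, each gene was read by its tested probe of highest mean level. Every member probe is named, with list genes at an unadjusted p below 0.05 without overlap and the highest and lowest tested gene of each group. Other second probes, *Smpd2*, *Smpd4* and the range of the remaining de novo genes were added after their values were seen. The members and lists were chosen with earlier results of these data known. Alternatives changed 1 choice each. For the values these were quantile normalization, normexp (offset 50), the authors' table and outlier spots kept. For the filter they were none, or all 6 arrays above background. For the test they were the methods' t-test, robust variances with an intensity trend, array weights, a replicate block, the slide row as a term or row 2 alone, and leaving out each heart. Averaging the probes of a gene was the last. The 3 hearts per diet limit the precision of every value.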

Additional observations from a re-analysis of the deposited data

How the results depend on the processing

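Of 19 alternatives, 0 gave a member probe an adjusted p below 0.05. The number of member probes at an unadjusted p below 0.05 was 1 in all of them except without HFD 3, where it was 3, a range of 1 to 3 with each heart left out. In the wider list the count at this limit was 9 of 68 genes, against 12.0% of all genes and 11.9% of all probes. For the alternatives the list has 1 probe per gene while the share is over all probes, so the units differ. The list count was 5 of 80 with no filter on dim probes, against 6.17% of all probes. With the slide row as a term it was 5 of 68, against 7.73%. It was 4 to 7 with each heart left out, as in 5 of 69 without ND 1 (7.86% of all probes), 4 of 68 without ND 2 (8.27%) and 5 of 70 without ND 3 (10.6%). The share of all probes thus fell too in the settings named. With an intensity trend and robust variances, 1 gene of the list, *St3gal5*, passed the adjustment. In that setting 81 of all 27587 probes passed it, against 4 in the reported setting. The cause of these shifts was not tested.

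With the replicate number as a block the list count was 5 of 68, against 10.9% of all probes. The labels number the hearts of both diets alike but do not say that equal numbers mark pairs, so they were not treated as pairs. The correlation of same-numbered deviations was −0.154, 0.147 and 0.190. With 3 hearts per diet these values cannot decide whether the numbers mark pairs.

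Of 530 single-probe values under the alternatives, 499 kept their direction and side of the adjusted limit, 1 (*St3gal5*) gained it and 30 changed sign, none of them past it. With the slide row as a term, or on row 2 alone, these were *Sptlc2* (−0.013 and −0.21), *Degs1* (−0.0083), *Ugcg* (−0.018), *Sphk1* (−0.18 and −0.37) and *Asah2* (−0.10). With normexp background correction it was *Asah1* (−0.0081), with array weights *Ugcg* (−0.00047) and *Sphk1* (−0.076), and with the average of a gene's probes *Asah1* (0.00023) and *Asah2* (−0.0066). With each heart left out, *Asah1* ranged from −0.094 to 0.044 and from −0.027 to 0.066 by its probes, *Ugcg* from −0.022 to 0.061, *Cerk* from −0.024 to 0.097, *Sphk1* from −0.16 to 0.67 and from −0.19 to 0.58, and *Gm2a* from −0.025 to 0.27. *Degs2* and *Cers6*, dim in at least 1 heart, could not be given a value where all arrays had to be above background.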

Other observations

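A pair of list genes outside the naming rule were picked after their values were seen. *Neu1*, a lysosomal sialidase, lay at 3.07, 3.02 and 2.998 in ND and 2.87, 2.91 and 2.89 in HFD, without overlap. The difference was −0.14 on the log2 scale (SE 0.06, adjusted p = 0.458 in limma). *Cers5*, a ceramide synthase, was among the steadiest probes on the array. The ND hearts stood at 3.38, 3.37 and 3.38 and the HFD hearts at 3.36, 3.32 and 3.37, and its within-diet SD of 0.02 was larger than that of 0.268% of the probes tested. Its HFD level had a 95% interval from 88.8% to 109% of the ND level.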
